A study of Mus musculus with 21 samples.

Results

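The genes encoding the proteasome and its direct helpers, which carry the mouse symbols Psma to Psmg followed by a number, were described in dendritic cells of the mouse. A search of the gene names returned 49 such genes among the 37734 listed, and all 49 passed the filter on low values (at least 10 normalised reads in at least 3 samples). They comprised 8 genes of the alpha ring, 11 of the beta ring, 6 ATPases (Psmc), 14 genes of the Psmd series, 5 activators (Psme), 4 assembly chaperones (Psmg) and the inhibitor Psmf1. The search used names only, and no measured value entered it. Bulk RNA-seq had been carried out on conventional dendritic cells (cDC) of C57BL/6 mice 6 to 8 weeks old, with no treatment and no altered allele named. Cells enriched on CD11c beads were sorted by flow cytometry from pools of mice as cDC1 or cDC2. The 6 groups were immature splenic cDC1 (SP1Minus, n = 4), immature thymic cDC1 (TH1Minus, n = 4), mature thymic cDC1 (TH1Plus, n = 3), immature splenic cDC2 (SP2Minus, n = 3), immature thymic cDC2 (TH2Minus, n = 3) and mature thymic cDC2 (TH2Plus, n = 3). Immature cells were CCR7- Esam- and mature cells CCR7+ Esam+, and no mature splenic group was analysed here. The fifth SP1Minus library differed from another of the same pool by less than every other pair of that group (chi-square per degree of freedom 2.44, against 25 to 176 for the 9 other pairs), and both were averaged into 1 sample. The 4 SP1Minus samples carried 3 distinct pool numbers, as did the 4 of TH1Minus where its pool Et8 is read as pool 8, so that samples of the same number may not be independent.

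The proteasome is the main protease for ubiquitin-tagged proteins in the cytosol and nucleus. Its 20S core is a barrel of stacked alpha and beta rings, and the subunits encoded by Psmb5, Psmb6 and Psmb7 carry the constitutive active sites (beta5, beta1 and beta2). In cells exposed to interferon and in many immune cells these are exchanged for Psmb8, Psmb9 and Psmb10 (beta5i, beta1i and beta2i), which gives the immunoproteasome, and in cortical thymic epithelium beta5 is exchanged for Psmb11 (beta5t). The 19S particle, built of the Psmc ATPases and most Psmd subunits, binds and unfolds ubiquitin-tagged substrates, whereas the PA28 activator encoded by Psme1 and Psme2 opens the core without ubiquitin or ATP. The peptides released feed MHC class I, and dendritic cells are known for their use of the immunoproteasome in this task.

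Values are normalised reads, that is reads per gene divided by 1 size factor per library, and the libraries held 14266867 to 40119669 reads. A fold change is the difference between group means of log2(value + 1), given with its SE, and a gene was called higher or lower at an adjusted p below 0.1 by limma across 14970 genes. The 49 genes took 0.339% to 0.865% of the reads of a library. TH1Minus replicate 3 gave them 0.792%, against 0.580% to 0.640% in the other libraries of its group. Summed marker levels separated the groups as labelled, but single markers did not all do so. The sum of 6 cDC1 markers was 79760 to 91600 in SP1Minus, 97470 to 107000 in TH1Minus and 40510 to 44160 in TH1Plus, against 2856 to 22410 in the cDC2 groups, and Ccr7 was 92666 to 129530 and 91722 to 115570 in the mature groups against 261 to 726 in SP1Minus and 2008 to 5433 in SP2Minus. The sum of 5 cDC2 markers was 14040 to 43520 in the cDC2 groups and 441.6 to 3615 in the cDC1 groups, where Itgam was at 0 in TH1Plus. Irf8 (33314 to 36006) made up most of the cDC1 sum in TH1Plus. Itgae was higher in TH2Minus (4697 to 6455) than in TH1Plus (107 to 372) and SP1Minus (1349.5 to 1845). Batf3 was higher in TH2Plus (3243 to 5405) than in SP1Minus (1090 to 2197). Of the cDC2 markers, Itgam (3.14 to 32.7) and Clec4a4 (0 to 7.66) were low in TH2Plus. Both mature groups were sequenced in lane 8, whereas the immature groups were divided between lanes 5 and 8. Nothing in the labels placed the libraries of a group in separate experiments beyond their pool names, so p-values measure the spread between these libraries. In bulk RNA a smaller share of cells of a type and less RNA per cell cannot be told apart.

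Before the values, promoter stretches are shown for 4 of the genes on which the contrast between immune and constitutive subunits rests. They were taken from the RefSeq promoter table (build GRCm38.p6), which held 41 of the 49 genes, and were limited to bases outside annotated exons. Psmb10 (antisense strand of chr8:105938445-105938594) and Psme2 (antisense strand of chr14:55591114-55591263) are immune genes, and Psmb5 (antisense strand of chr14:54618023-54618172) and Psmb6 (sense strand of chr11:70525207-70525356) constitutive ones. The 4 are examples only, and a part of promoter letters in the expression changes was not tested. Capitals mark TGACNNNGC, the core letters of the antioxidant response element through which Nfe2l1 and Nfe2l2 are known to act.
Psmb10: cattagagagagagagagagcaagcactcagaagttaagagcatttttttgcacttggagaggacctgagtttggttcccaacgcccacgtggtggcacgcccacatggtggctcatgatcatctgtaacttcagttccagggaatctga
Psme2: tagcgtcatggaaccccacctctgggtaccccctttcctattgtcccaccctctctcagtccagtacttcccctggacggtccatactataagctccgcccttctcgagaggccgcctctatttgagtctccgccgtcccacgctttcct
Psmb5: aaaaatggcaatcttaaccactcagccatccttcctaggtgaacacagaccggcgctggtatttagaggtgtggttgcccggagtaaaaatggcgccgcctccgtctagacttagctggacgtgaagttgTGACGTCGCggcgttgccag
Psmb6: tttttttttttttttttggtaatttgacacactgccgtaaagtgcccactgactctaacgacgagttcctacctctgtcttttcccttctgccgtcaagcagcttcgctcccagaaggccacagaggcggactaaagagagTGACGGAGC

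Both strands of the 250 bases before each start were searched for 4 sets of letters. TGACNNNGC was found in 5 of the 41 genes (12.2%, against 11.5% of 27025 genes), among them Psmb5 and Psmb6 and none of the 5 immune genes. TTCNNNGAA, the letters of an interferon-gamma activated site, was found in 2 of the 41 (4.88% against 8.13%), and Psmb8 was the immune gene that held it, as TTCCCAGAA at -97 to -89. GAAA followed after 2 bases by GAAA, the letters of an interferon-stimulated response element, was found in 3 (7.32% against 3.46%), namely Psmb3, Psmd4 and Psmd9. GGGA followed after 4 bases by CC, the letters of an NF-kB site, was found in 10 (24.4% against 19.7%), none of them an immune or constitutive catalytic gene. Psmb7 was not in the table. In genes that held 2 of the sets the matches did not overlap, and each match is a description of letters only.

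Several of the immune genes are neighbours in the genome (GENCODE M21, GRCm38/mm10). Psmb8 (chr17:34197721-34201454, sense strand) and Psmb9 (chr17:34181987-34187764, antisense strand) flank Tap1 in the MHC, and the starts of Psmb9 and Tap1 are 211 bases apart on opposite strands, with 212 bases of shared exon. Psme1 (chr14:55578123-55581529) and Psme2 (chr14:55587441-55591113) are 5911 bases apart on opposite strands, and Psmb10 is at chr8:105935735-105938444. Of the constitutive genes, Psmb5 (chr14:54614119-54618022) lies beside Psmb11 (chr14:54621433-54629556), Psmb6 is at chr11:70525367-70527858 and Psmb7 at chr2:38588036-38644087, where 405 exonic bases overlap Nek6 on the other strand. Psmb8 shares 498 such bases with Gm20496 and Psmd9 1849 with Gm26745. The kit was stranded but the strand setting of the counting was not given, so reads over such stretches may belong to either gene.

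The first comparison asked how maturation changed these genes within the thymus. In mature thymic cDC1, 21 of the 49 genes were higher and 6 were lower than in immature thymic cDC1, with a median log2 fold change of 0.25 against -0.04 over all genes. Maturation moved much of the transcriptome, and 30.4% of all tested genes were higher and 33.7% lower, so the share of higher proteasome genes (42.9%) was above the background and that of lower ones (12.2%) below it. In mature thymic cDC2, 12 were higher and 11 lower, against 27.7% and 25.5% of all genes, so that neither count (24.5% and 22.4% of the members) stood away from the background, and the median was -0.08 against 0.04. Within lane 8 alone the medians were 0.18 in cDC1 and -0.12 in cDC2. Changes of more than 2-fold were found for 11 genes in cDC1 (45.7% of all genes) and for 10 in cDC2 (35.6%), both shares of members being below the background. The immune subunits held 3 of the 6 more than 2-fold rises in cDC1 and 5 of the 8 in cDC2.

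Psme2 (PA28beta) changed most among the immune genes. It measured 6766, 8859, 13254 and 7624 normalised reads in the 4 immature thymic cDC1 samples and 38241, 41863 and 46874 in the 3 mature ones. In cDC2 it measured 4884, 5590.4 and 6483 in immature and 30357, 35237 and 28314 in mature samples. The groups did not overlap in either subset, and the lowest mature sample of cDC1 was above the highest immature one (TH1Minus replicate 3) by a wide margin. The log2 fold change was 2.26 ± 0.19 (SE; adjusted p = 2.09e-09) in cDC1 and 2.47 ± 0.20 (SE; adjusted p = 3.45e-09) in cDC2.

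Its partner Psme1 (PA28alpha), with which it forms the ring that caps the core, rose less. It measured 13351, 16596, 22320 and 13711 in immature and 30342, 37530 and 35613 in mature thymic cDC1, and 7717, 7373 and 8411 in immature and 22513, 24014 and 21269 in mature thymic cDC2. Again no mature sample overlapped an immature one of its subset. The log2 fold change was 1.09 ± 0.16 (SE; adjusted p = 5.94e-06) in cDC1 and 1.53 ± 0.17 (SE; adjusted p = 2.99e-07) in cDC2. Per kilobase of exon, the ratio of Psme2 to Psme1 was 0.686 ± 0.05 (SD, n = 4) in TH1Minus and 1.54 ± 0.13 (n = 3) in TH1Plus, and it was 0.903 ± 0.10 in TH2Minus and 1.73 ± 0.09 in TH2Plus (n = 3 each). In the spleen the same ratio was 0.610 ± 0.04 in cDC1 (n = 4) and 0.776 ± 0.05 in cDC2 (n = 3). The length taken for each gene scales all of these ratios alike, so they are read for the change between groups and not for which gene led.

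Of the catalytic immune subunits, Psmb10 rose in both subsets. It measured 1745, 2496, 3094 and 1629 in immature and 3584, 4319 and 5465 in mature thymic cDC1, and 1638, 1949 and 2039 in immature and 4467, 4786 and 3384 in mature thymic cDC2. Mature and immature samples did not overlap. The log2 fold change was 1.02 ± 0.28 (SE; adjusted p = 0.00336) in cDC1 and 1.16 ± 0.29 (SE; adjusted p = 0.0028) in cDC2.

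Psmb8 and Psmb9 rose in cDC2, where each passed the test, and did not pass it in cDC1. Psmb8 measured 5702, 6624 and 6564 in immature and 14701, 14447 and 11665 in mature thymic cDC2, with no overlap and a log2 fold change of 1.11 ± 0.23 (SE; adjusted p = 0.000469). In cDC1 it measured 10291, 11385, 13611 and 9083 in immature and 13140, 12715 and 18478 in mature samples, which overlapped, and the log2 fold change was 0.41 ± 0.21 (SE; adjusted p = 0.111). Psmb9 measured 2716, 2854 and 3279 in immature and 9448, 9313 and 6199 in mature thymic cDC2, again without overlap, at 1.47 ± 0.22 (SE; adjusted p = 1.29e-05). In cDC1 it measured 7103, 7293, 10768 and 6884 in immature and 9331, 9866 and 11832 in mature samples, which overlapped through TH1Minus replicate 3, at 0.39 ± 0.21 (SE; adjusted p = 0.115). Without that replicate both passed in cDC1, Psmb8 at 0.51 (adjusted p = 0.059) and Psmb9 at 0.54 (adjusted p = 0.0286). The difference between the subsets was tested as an interaction, cDC2 minus cDC1, and it was 1.09 ± 0.30 (SE; adjusted p = 0.02) for Psmb9 and 0.70 ± 0.31 (SE; adjusted p = 0.158) for Psmb8.

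**Figure D1:**
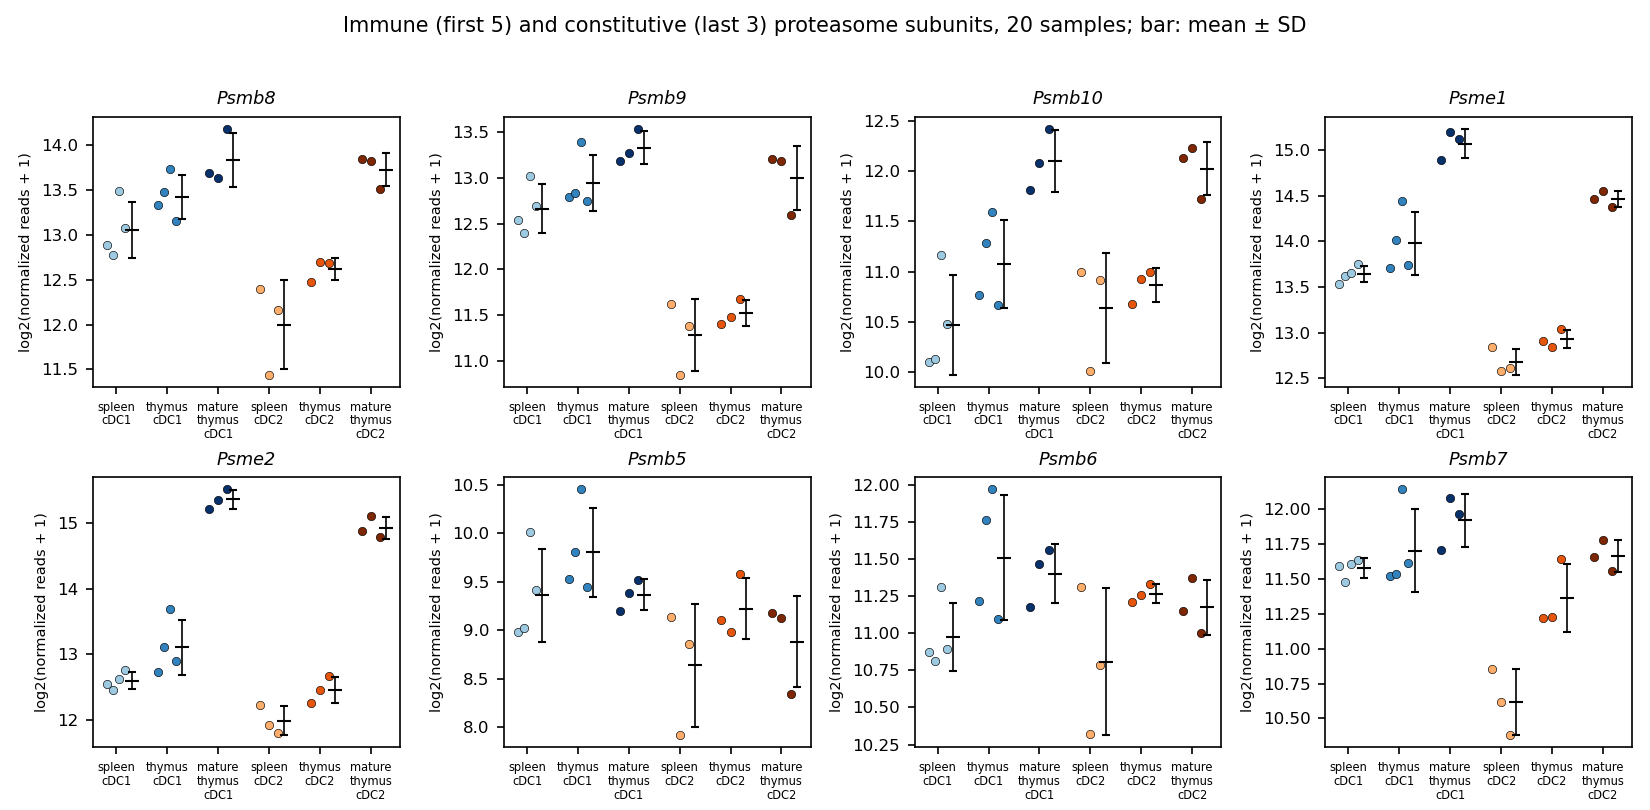
log2(normalised reads + 1) of the 5 immune genes (Psmb8, Psmb9, Psmb10, Psme1 and Psme2) and the 3 constitutive genes (Psmb5, Psmb6 and Psmb7), 1 panel per gene with its own vertical axis, which does not start at 0; points are the 20 samples in the 6 groups and bars the mean ± SD. On the scale of normalised reads Psme2 stands between 28314 and 46874 in the mature groups and between 3575 and 13254 in the immature ones, whereas the mature samples of Psmb5 and Psmb6 lie within the range of the immature samples.

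The constitutive subunits passed the test in neither subset during maturation (0 of 3 each by limma, by edgeR, by DESeq2 and at an unadjusted p below 0.05). Psmb5 measured 734, 891, 1397 and 693 in immature and 586, 665 and 731 in mature thymic cDC1 (-0.44 ± 0.31, adjusted p = 0.237) and 551, 504 and 762 in immature and 577, 558 and 323 in mature cDC2 (-0.34 ± 0.33, adjusted p = 0.426). Psmb6 measured 2382, 3469, 4007 and 2183 in immature and 2315, 2832 and 3014 in mature cDC1 (-0.11 ± 0.22, adjusted p = 0.694) and 2367, 2443 and 2581 in immature and 2266, 2647 and 2052 in mature cDC2 (-0.09 ± 0.23, adjusted p = 0.782). Psmb7 measured 2936, 2968, 4524 and 3144 in immature and 3351, 4339.5 and 4012 in mature cDC1 (0.22 ± 0.16, adjusted p = 0.259) and 2389, 2394 and 3201 in immature and 3226, 3524 and 3012 in mature cDC2 (0.30 ± 0.17, adjusted p = 0.163). Mature and immature samples of these genes overlapped in both subsets. Without TH1Minus replicate 3, Psmb7 passed in both, at 0.36 in cDC1 (adjusted p = 0.0397) and 0.30 in cDC2 (adjusted p = 0.097).

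The balance between both kinds of subunit was summarised per sample as the mean log2 level of the 5 immune genes minus that of the 3 constitutive ones, and it is given as a description without a test. It was 1.85 ± 0.04 in SP1Minus (SD, n = 4), 1.90 ± 0.03 in TH1Minus (n = 4), 1.70 ± 0.10 in SP2Minus (n = 3) and 1.46 ± 0.12 in TH2Minus (n = 3). In the mature groups it was 3.04 ± 0.11 in TH1Plus and 3.05 ± 0.04 in TH2Plus (n = 3 each). Every mature sample (2.93 to 3.14) stood above every immature sample (1.36 to 1.93). The gain was 1.14 in cDC1 and 1.59 in cDC2, and the mature groups ended at nearly the same balance from unequal starting points. Without the PA28 genes the gains were 0.72 and 1.29.

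**Figure D2:**
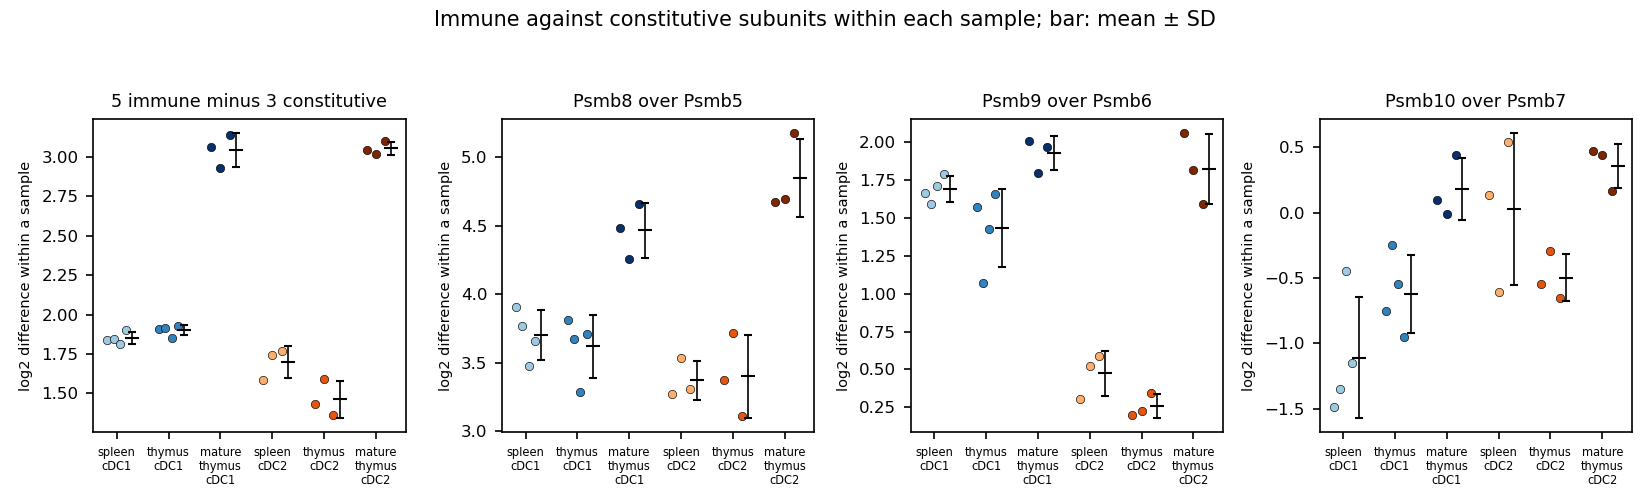
The first panel shows, for each of the 20 samples in the 6 groups, the mean log2 level of the 5 immune genes minus that of the 3 constitutive genes, and the other panels the log2 ratio within each exchanged pair, with bars at the mean ± SD. In the first panel immature samples lie between 1.36 and 1.93 and mature samples between 2.93 and 3.14.

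Within the exchanged pairs, levels per kilobase of exon were compared. Psmb8 exceeded Psmb5 by a factor of 3.3 ± 0.49 in TH1Minus (SD, n = 4) and 5.92 ± 0.82 in TH1Plus (n = 3), and by 2.84 ± 0.61 in TH2Minus and 7.76 ± 1.61 in TH2Plus (n = 3 each). Psmb9 over Psmb6 was 1.40 in TH1Minus and 1.95 in TH1Plus on average, and 0.612 in TH2Minus and 1.82 in TH2Plus. In splenic cDC2 this ratio was 0.713 and in splenic cDC1 1.65. It was thus lower in both immature cDC2 groups than in the immature cDC1 groups. Psmb10 over Psmb7 was 1.32 in TH1Minus and 2.29 in TH1Plus, and 1.43 in TH2Minus and 2.58 in TH2Plus. In the spleen it was 0.969 in cDC1 and 2.15 in cDC2. The splenic cDC2 samples (1.32 to 2.92) spanned the samples of TH1Plus (2.00 to 2.73) and TH2Plus (2.25 to 2.78), so this ratio did not set mature groups apart. These ratios use the union of annotated exons, and with the longest annotated transcript the median log2 ratio over all samples moved from 0.63 to 0.015 for Psmb9 over Psmb6. Which gene of that pair led therefore depends on the length taken, and its ratio is read for differences between groups.

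With maturation, the standard 20S core genes that passed the test changed by less than 2-fold. Of the 14 standard subunits (alpha 1 to 7 and beta 1 to 7), 5 were higher and none was lower in mature cDC1, and 2 were higher and 2 lower in mature cDC2. Over all genes 30.4% were higher and 33.7% lower in cDC1 and 27.7% and 25.5% in cDC2, so that the share of higher core genes in cDC1 was near the background. At an unadjusted p below 0.05, with edgeR and with DESeq2 the count of lower genes in cDC1 was also 0. Those called in cDC1 were all alpha subunits. The largest rise was that of Psma7, which measured 3255, 3660.4, 5017 and 3033 in immature and 5543, 7284 and 6599.5 in mature cDC1 (0.81 ± 0.17, adjusted p = 0.000279), followed by Psma6 at 0.66 (adjusted p = 0.006) and Psma5 at 0.64 (adjusted p = 0.00147). In cDC2, Psma5 was higher at 0.35 (adjusted p = 0.097) and Psmb1 at 0.36 (adjusted p = 0.0611), the Psma5 call being lost in 17 of 34 alternatives (adjusted p up to 0.229), whereas Psma4 was lower at -0.57 (adjusted p = 0.00617) and Psmb2 at -0.57 (adjusted p = 0.0329).

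The 19S particle differed between the subsets. Of 17 genes (the 6 ATPases and Psmd1 to Psmd14 without the assembly factors Psmd5, Psmd9 and Psmd10), 10 were higher and none lower in mature cDC1, with a median log2 fold change of 0.39, and the unadjusted p, edgeR and DESeq2 also gave 0 lower genes. In mature cDC2, 1 was higher and 5 were lower, with a median of -0.12. Of all genes, 30.4% were higher and 33.7% lower in cDC1 and 27.7% and 25.5% in cDC2. The share of lower 19S genes in cDC2 was thus near the background. As an interaction, the maturation effect in cDC2 minus that in cDC1 was negative for all 17 genes, with a median of -0.58 against 0.11 over all genes, and 7 of the 17 passed the test. Over all 49 genes the interaction was called in 10, with 3 above and 7 below zero (6.12% and 14.3%, against 11.2% and 7.30% of all genes). The 7 below zero were all genes of the 19S particle, and edgeR called 6 and DESeq2 10 genes below zero. Leaving out TH1Minus replicate 3 raised the count from 10 to 16, with 3 above and 13 below zero, and within lane 8 alone it was 4.

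Psmd7 (Rpn8), the scaffold partner of the deubiquitinase in the lid, had the lowest adjusted p of the 7. It measured 1646, 1762, 2185 and 1496 in immature and 3523, 3835 and 3771 in mature thymic cDC1, where the log2 fold change was 1.08 ± 0.12, adjusted p = 1.42e-07. In cDC2 it measured 1459, 1546 and 1609 in immature and 1749, 1829.8 and 1641 in mature samples, at 0.18 ± 0.13, adjusted p = 0.272. The mature cDC1 samples stood apart from all others, and the interaction was -0.90 ± 0.17 (SE; adjusted p = 0.00163).

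Psmd11 (Rpn6), a lid subunit that clamps the lid to the core, was next. It measured 2148, 1947, 2325 and 2109 in immature and 3803, 3440.1 and 3927 in mature thymic cDC1 (0.80 ± 0.11, adjusted p = 3.85e-06), and 2103, 1980 and 2132 in immature and 1978, 1997 and 2378 in mature cDC2 (0.03 ± 0.12, adjusted p = 0.883). The interaction was -0.78 ± 0.17 (SE; adjusted p = 0.00366). Psmd1 (Rpn2), a large base scaffold, measured 2722 to 3213 in immature and 3541 to 4286 in mature cDC1, and 2815 to 3079.5 in immature and 2395 to 2691 in mature cDC2, with an interaction of -0.62 ± 0.16 (SE; adjusted p = 0.0165).

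Among the ATPases, which form the unfolding ring, 5 of 6 were higher and none lower in mature cDC1, and none was higher and 2 lower in mature cDC2, with 0 also for both zero counts at an unadjusted p below 0.05, with edgeR and with DESeq2. Shares over all genes were 30.4% higher and 33.7% lower in cDC1 and 27.7% and 25.5% in cDC2. With 6 genes, the counts in cDC2 did not stand away from these shares. Psmc2 measured 2213, 2112, 3044 and 2436 in immature and 3781, 3719 and 3881 in mature cDC1 (0.64 ± 0.14, adjusted p = 0.000597), and 2582, 2291 and 2821 in immature and 2263, 2418 and 2597 in mature cDC2 (-0.08 ± 0.15, adjusted p = 0.716), with an interaction of -0.72 ± 0.21, adjusted p = 0.026. Psmc1 rose in cDC1 at 0.40 (adjusted p = 0.0217) and fell in cDC2 at -0.38 (adjusted p = 0.0495), and its interaction was -0.79 ± 0.21, adjusted p = 0.0176. The interaction was -0.74 ± 0.26, adjusted p = 0.0724 for Psmc4 and -0.58 ± 0.21, adjusted p = 0.0735 for Psmc5, calls that were lost in 10 and 14 of 33 alternatives. Psmc6 had the largest rise of the ATPases in cDC1 (0.79 ± 0.25, adjusted p = 0.0107), with an interaction of -0.83 that did not pass (adjusted p = 0.155), and Psmc3 the largest fall in cDC2 (-0.54 ± 0.16, adjusted p = 0.00789). Markers of other cell types also differed between these groups. The sum of the 5 macrophage markers found of 6 was 1245 to 10880 in TH2Plus and 4164 to 6869 in TH2Minus, against 71.1 to 315.8 in TH1Plus and 84.9 to 265.3 in TH1Minus, and the sum of 8 T-lineage markers was 1319 to 2437 in TH1Plus and 747 to 1210 in TH2Plus against 165.7 to 286.6 in the immature thymic groups. Their part in the result was not tested.

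**Figure D3:**
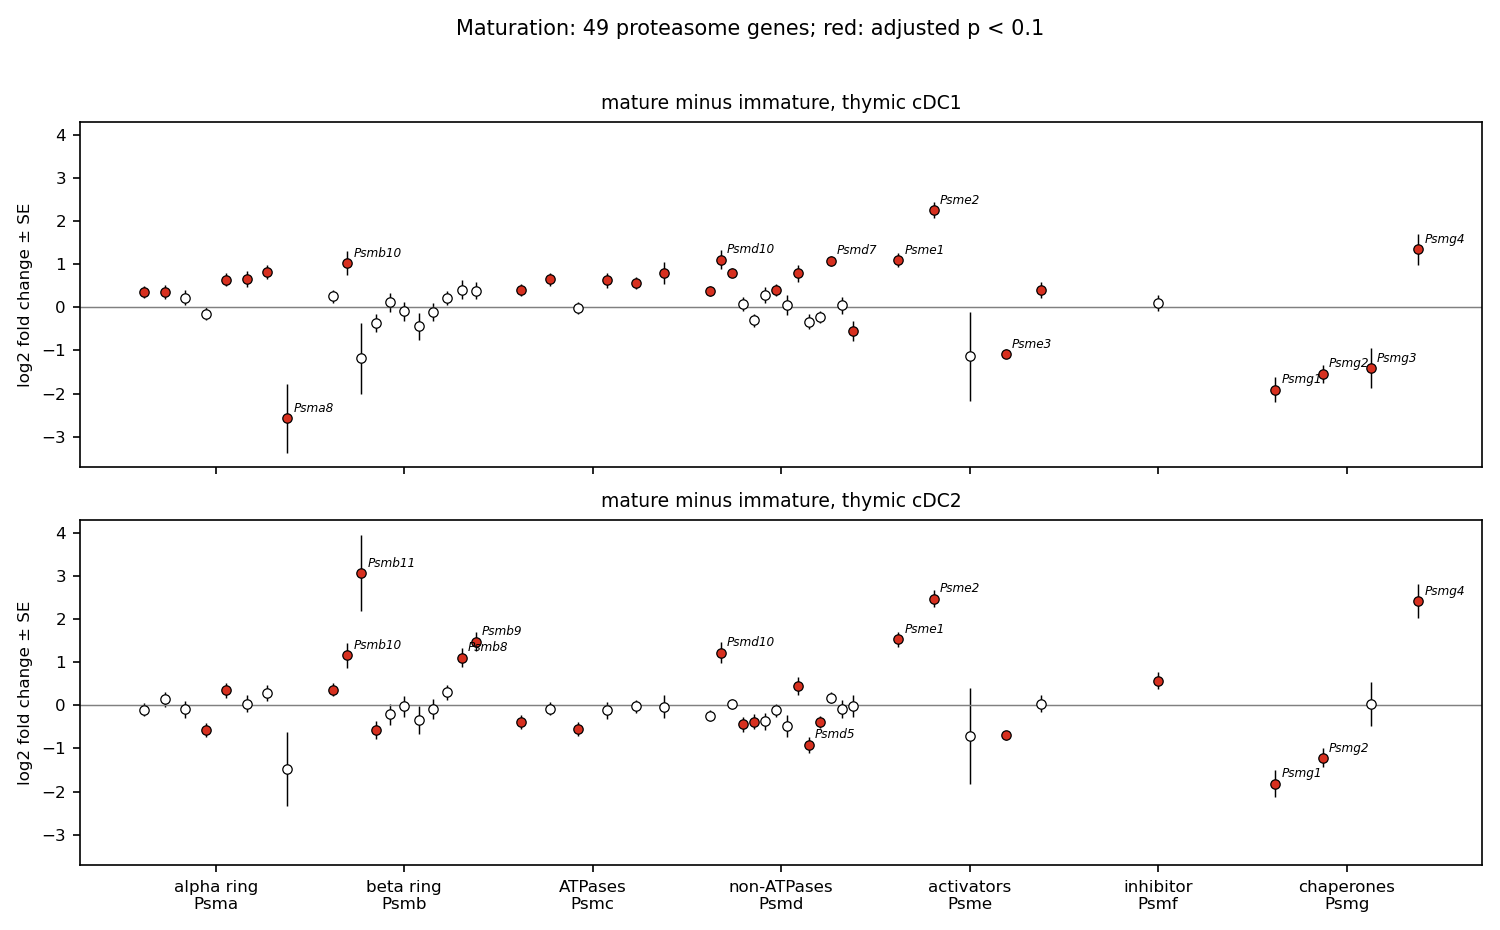
Log2 fold change ± SE of mature over immature thymic cDC1 (upper panel) and cDC2 (lower panel) for the 49 genes, ordered by subcomplex along the horizontal axis, with genes at an adjusted p below 0.1 in red. The ATPases that passed lie above zero in the upper panel and below it in the lower, and Psme2 stands at 2.26 and 2.47.

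The assembly chaperones, which build the core and are not part of the finished particle, gave some of the largest falls. Psmg1 (PAC1) measured 225, 232, 332 and 152 in immature and 44.2, 86.7 and 55.2 in mature thymic cDC1 (-1.91 ± 0.30, adjusted p = 1.33e-05). In cDC2 it measured 241, 249 and 294 in immature and 72.9, 103 and 52.6 in mature samples (-1.81 ± 0.32, adjusted p = 8.24e-05). Psmg2 (PAC2), with which it pairs to guide alpha ring formation, measured 335, 397, 449 and 445 in immature and 171, 95.3 and 162 in mature cDC1 (-1.54 ± 0.21, adjusted p = 1.88e-06) and 436, 523 and 486 in immature and 236, 202 and 184 in mature cDC2 (-1.22 ± 0.22, adjusted p = 0.000115). Neither gene had a mature sample that reached the immature range of its subset.

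The other chaperone pair split. Psmg3 (PAC3) measured 63.4, 81.6, 125 and 86.9 in immature and 35.0, 15.6 and 59.2 in mature cDC1 (-1.41 ± 0.47, adjusted p = 0.0147), and 43.8, 32.8 and 103 in immature and 53.7, 61.9 and 47.1 in mature cDC2, where groups overlapped (0.03 ± 0.50, adjusted p = 0.975). Psmg4 (PAC4) was the chaperone that rose. It measured 220.5, 299, 323 and 243 in immature and 411, 752 and 1033 in mature cDC1 (1.35 ± 0.36, adjusted p = 0.00318), and 126, 119.9 and 182 in immature and 819, 1013 and 514 in mature cDC2 (2.42 ± 0.39, adjusted p = 2.96e-05), without overlap in either subset. Of the 3 chaperones of the 19S base in the Psmd series, Psmd10 (gankyrin) rose, ranging over 281 to 449 in immature and 614 to 984 in mature cDC1 (1.11 ± 0.22, adjusted p = 0.000256) and over 285 to 410.5 in immature and 785 to 965 in mature cDC2 (1.22 ± 0.24, adjusted p = 0.00027). Psmd9 was lower in mature cDC1 (-0.55 ± 0.24, adjusted p = 0.0531), a call that was lost without TH1Minus replicate 3 (-0.50, adjusted p = 0.109), and Psmd5 was lower in mature cDC2 (-0.91 ± 0.18, adjusted p = 0.000325) while its value of -0.33 (adjusted p = 0.1) in cDC1 did not pass.

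Other regulators of the core moved in their own ways. Psme3 (PA28gamma), the nuclear relative of PA28, measured 3939.9, 4039, 3773 and 3812 in immature and 1792, 1853 and 1882 in mature thymic cDC1 (-1.08 ± 0.10, adjusted p = 1.22e-08 on the log2 scale). In cDC2 it measured 3150.1, 3252 and 3402 in immature and 1919, 1963 and 2176 in mature samples (-0.70 ± 0.11, adjusted p = 2e-05). Its replicates lay close together and no mature sample reached an immature one, and the interaction was 0.38 ± 0.15, adjusted p = 0.0953. That call was lost in 20 of 33 alternatives (adjusted p up to 0.312). Psme4 (PA200), a nuclear activator, measured 3217, 2748, 2259.5 and 3026 in immature and 4063, 3400.2 and 3609 in mature cDC1 (0.40 ± 0.19, adjusted p = 0.0719). It did not pass without TH1Minus replicate 3 (0.30, adjusted p = 0.196), one of 8 losses of that call in 34 alternatives, and in cDC2 it did not pass (0.03 ± 0.20, adjusted p = 0.91). Psmf1 (PI31), named as an inhibitor of the core, measured 573, 575 and 676 in immature and 963, 837 and 904 in mature cDC2 (0.57 ± 0.19, adjusted p = 0.0205), and in cDC1 it did not pass (0.10 ± 0.18, adjusted p = 0.67).

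Genes of restricted expression were read at low levels. Psmb11 (beta5t) was at 2 reads in all in SP1Minus and at 0 in SP2Minus. It measured 10.1, 13.3, 17.2 and 1.0 in TH1Minus, 1.84, 0 and 19.2 in TH1Plus, 7.47, 20.8 and 10.9 in TH2Minus and 103, 109 and 111 in TH2Plus, so that the 3 mature cDC2 samples were high and alike while mature cDC1 ranged from 0. Of the 25 TH1Plus reads, 24 came from replicate 3. TH2Plus exceeded TH2Minus by a ratio of 7.35 (432 reads against 45, 95% counting interval 5.4 to 10.2). The test gave 3.06 ± 0.88, adjusted p = 0.00678 for this comparison, 4.81 ± 0.88, adjusted p = 0.00042 for TH2Plus over TH1Plus and -1.18 ± 0.82, adjusted p = 0.229 for maturation in cDC1, with an interaction of 4.24 ± 1.20, adjusted p = 0.023 that was 5.44 (adjusted p = 0.00104) without TH1Plus replicate 3. In reads, TH2Plus exceeded TH1Plus by a ratio of 10.2 (432 against 25, 6.82 to 15.9), a smaller change than the fitted log2 value of 4.81. With values of 1.84 and 0 in TH1Plus, the fitted values that use this group depend on the pseudocount. TH1Minus exceeded SP1Minus by a ratio of 28.3 (40 against 2 reads, 7.33 to 241), and TH2Minus exceeded SP2Minus at least 4.12-fold, set against 3 reads per library. These intervals cover counting error only.

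Psmb11 is known from cortical thymic epithelium, and the sum of 6 markers of thymic epithelium was 123.3 to 225.5 in the splenic groups, 636 to 753.9 in TH1Minus, 1853 to 2631 in TH1Plus, 3544 to 3927 in TH2Minus and 3823 to 4849 in TH2Plus. In thymic cDC2 Epcam and Aire made up most of it and went opposite ways. Epcam was 3391 to 3715 in TH2Minus and 334 to 426 in TH2Plus, whereas Aire was 19.2 to 60.7 in TH2Minus and 2807 to 3978 in TH2Plus. Foxn1, the defining transcription factor, was 0 in both splenic groups and 0 to 25.3 in TH2Plus, and Krt8 was 70.0 to 134 in TH1Plus and 120.1 to 253 in TH2Plus. Their part in the Psmb11 values was not tested. Psma8, an alpha subunit known from testis, measured 43.1, 38.3, 62.4 and 42.4 in TH1Minus and 0, 36.4 and 11.99 in TH1Plus (-2.57 ± 0.80, adjusted p = 0.00906), with 37.4, 45.5 and 57.6 in immature and 10.7, 23.7 and 15.7 in mature cDC2 (-1.48 ± 0.85, adjusted p = 0.168). A mature cDC1 library held no Psma8 read, so the fitted fold change of this gene depends on the pseudocount. Psme2b, which is 99.4% identical to Psme2 over 794 aligned bases and may take reads from it, did not exceed 23.8 in any sample and was called in no comparison.

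**Figure D4:**
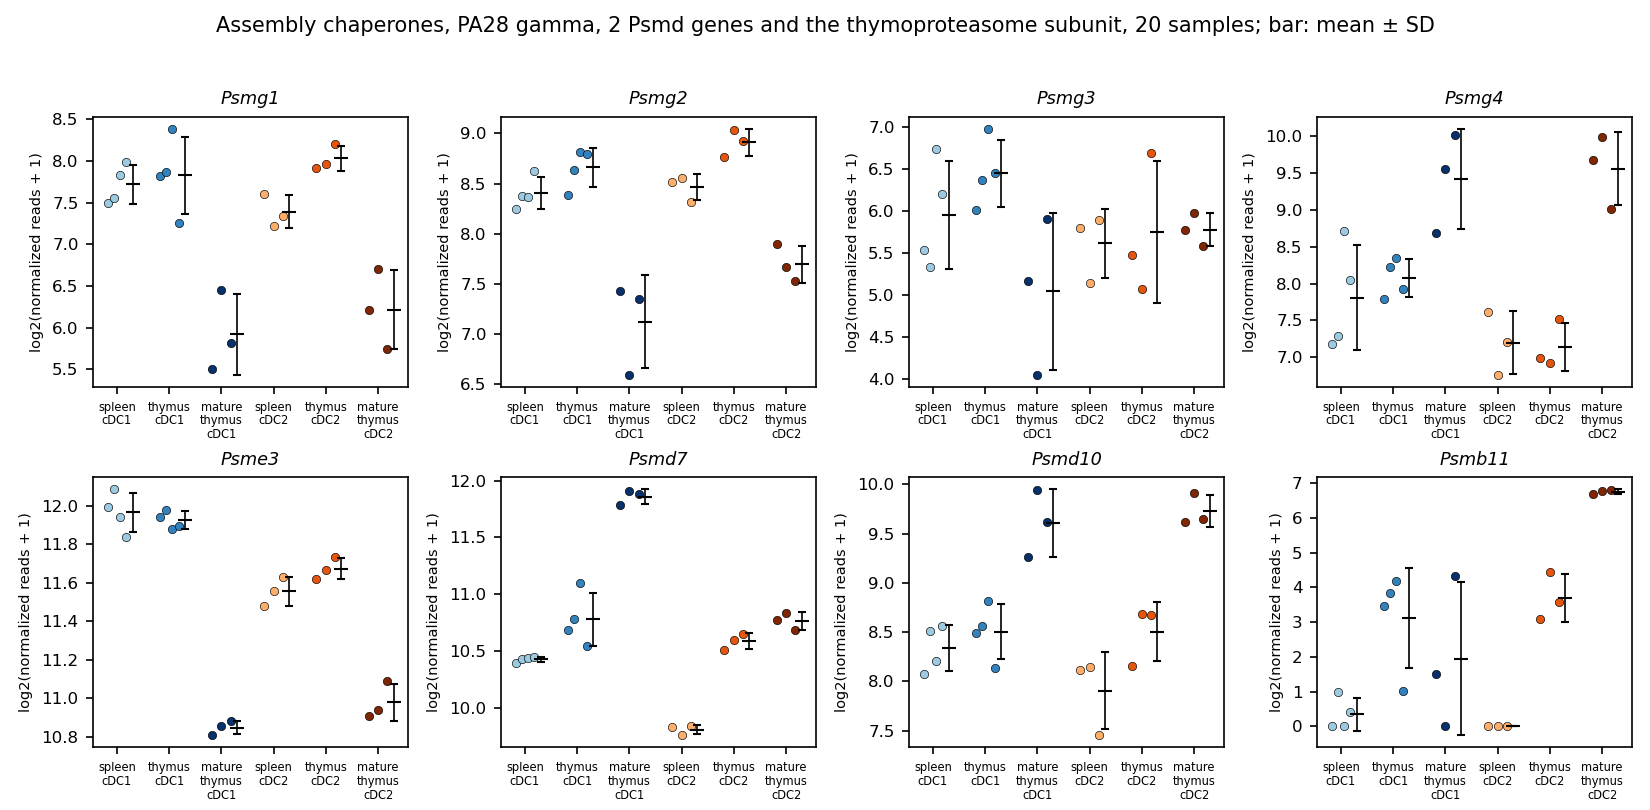
log2(normalised reads + 1) of the 4 assembly chaperones and of Psme3, Psmd7, Psmd10 and Psmb11, 1 panel per gene with its own vertical axis, for the 20 samples in the 6 groups, with bars at the mean ± SD. Psmg1 lies between 44.2 and 103 normalised reads in the mature groups and between 148.7 and 332.4 in the immature ones, and Psmb11 between 102.9 and 111.5 in mature cDC2.

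The second comparison asked whether immature cells differed between thymus and spleen. In cDC1, 9 of the 49 genes were higher in the thymus and none lower, against 7.72% and 7.70% of all genes (18.4% of members higher), and 1, Psmb11, changed more than 2-fold (8.77% of all genes). In cDC2, 25 were higher and none lower, against 14.9% and 11.6% of all genes (51.0% of members higher), and again 1, Psmb11, changed more than 2-fold (14.2%). For the lower direction the unadjusted p was below 0.05 for 0 genes in both subsets, and edgeR and DESeq2 also called 0. The median was 0.28 in cDC1 and 0.52 in cDC2, against 0.00 and 0.02 over all genes, and 46 and 47 of the 49 values were above zero. Within lanes 5 and 8 the medians were 0.22 and 0.24 in cDC1 and 0.33 and 0.68 in cDC2. Within lane 8 alone the count was 2 in cDC1. It fell to 2 without TH1Minus replicate 3, to 3 without TH1Minus replicate 2 and to 4 without SP1Minus replicate 2. The sum of 5 B-cell markers was 566.1 to 984.1 in SP1Minus and 106.4 to 139.1 in TH1Minus, and that of 5 pDC markers 3269 to 3960 in SP2Minus and 10540 to 12120 in TH2Minus. Macrophage markers, 5 found of 6, summed to 930.9 to 1691 in SP2Minus and 4164 to 6869 in TH2Minus. The part of these markers in the tissue differences was not tested.

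In cDC2 the genes higher in the thymus included 7 of 8 of the alpha ring, 5 of 6 ATPases and some other 19S genes. Over all genes 14.9% were higher, and the immune genes, with 1 of 5, were near that share. That immune call, Psmb8, was lost in 7 of 34 alternatives, and Psme2 passed in 9 of 34. Psma4 measured 2235, 2399 and 1845 in splenic and 4136, 3952 and 4829 in thymic immature cDC2, a log2 fold change of 1.00 ± 0.16, adjusted p = 0.000124, and in cDC1 it measured 3962, 3575, 2914 and 3844 in splenic and 4295, 4369, 6149.6 and 4911 in thymic samples (0.46 ± 0.14, adjusted p = 0.0332). Psma6 followed at 0.96 (adjusted p = 0.00197) in cDC2 and 0.51 (adjusted p = 0.0663) in cDC1, and Psmc3 at 0.82 (adjusted p = 0.000819) and 0.44 (adjusted p = 0.0417). All 3 of these cDC1 calls were lost without TH1Minus replicate 3 (Psma4 at 0.35, adjusted p = 0.131; Psma6 at 0.35, adjusted p = 0.251; Psmc3 at 0.32, adjusted p = 0.159). Psmd7 measured 908, 865 and 914 in splenic and 1459, 1546 and 1609 in thymic cDC2 (0.78 ± 0.13, adjusted p = 0.000144), with no overlap. Psmb7 measured 1849.5, 1568 and 1331 in splenic and 2389, 2394 and 3201 in thymic cDC2 (0.75 ± 0.17, adjusted p = 0.00343). Of the immune genes, Psmb8 rose in thymic cDC2, measuring 5399, 2778 and 4579 in splenic and 5702, 6624 and 6564 in thymic samples (0.62 ± 0.23, adjusted p = 0.0637), and Psme2 in thymic cDC1, measuring 6001, 5609.8, 6326 and 6974 in splenic and 6766, 8859, 13254 and 7624 in thymic samples (0.51 ± 0.17, adjusted p = 0.063), a call that was lost without TH1Minus replicate 3 (0.31, adjusted p = 0.24). Psmb6 also passed in cDC1 at 0.54 (adjusted p = 0.0977), and it did not without that replicate (0.39, adjusted p = 0.314), nor in 23 of 34 alternatives in all.

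The balance of immune over constitutive subunits did not follow the tissue in this way. It moved by 0.05 in cDC1 and by -0.24 in cDC2 between spleen and thymus. The difference between the subsets in the tissue effect was called for 0 of the 49 genes by limma, against 3.96% of all genes above and 2.29% below zero. At an unadjusted p below 0.05 it was above zero for 10 genes and below for 0, and edgeR called 0 and DESeq2 1. The count was 7 without TH1Minus replicate 3, 3 without SP1Minus replicate 3 and 2 without SP2Minus replicate 2. The maturation and tissue comparisons share the immature thymic samples, so their values are given side by side only.

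The third comparison set cDC2 against cDC1 in each tissue and stage. In the spleen, 23 of the 49 genes were lower in cDC2 and 1 was higher, against 13.4% and 16.0% of all genes (46.9% and 2.04% of members), with a median of -0.41 against 0.02. Within lanes 5 and 8 the medians were -0.33 and -0.60, and lane 8 alone, with 1 cDC2 library, gave 11 calls. In the immature thymus 7 were lower and 1 was higher (10.5% and 15.5% of all genes, 14.3% and 2.04% of members), and in the mature thymus 23 were lower and 2 higher (9.27% and 21% of all genes, 46.9% and 4.08% of members), with medians of -0.09 and -0.44 against 0.01 and 0.14. The median of the immature thymic comparison was -0.10 in lane 5 and -0.09 in lane 8. Its count of 8 fell to 4 without TH1Minus replicate 2, TH2Minus replicate 1 or TH2Minus replicate 2, and was 4 in lane 8 alone. More than 2-fold changes were found for 2 genes in each of the 3 comparisons (16.6%, 16.4% and 18.9% of all genes), namely Psmb8 and Psmb9 in the spleen, Psmb9 and Psme1 in the immature thymus, and Psmb11 and Psmd7 in the mature thymus. The gene higher in cDC2 in both immature comparisons was Psmd8, a lid subunit, at 0.54 (adjusted p = 0.0539) in the spleen and 0.49 (adjusted p = 0.0901) in the thymus, and those higher in mature cDC2 were Psmb11 and Psmg2 (0.57, adjusted p = 0.0656).

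**Figure D5:**
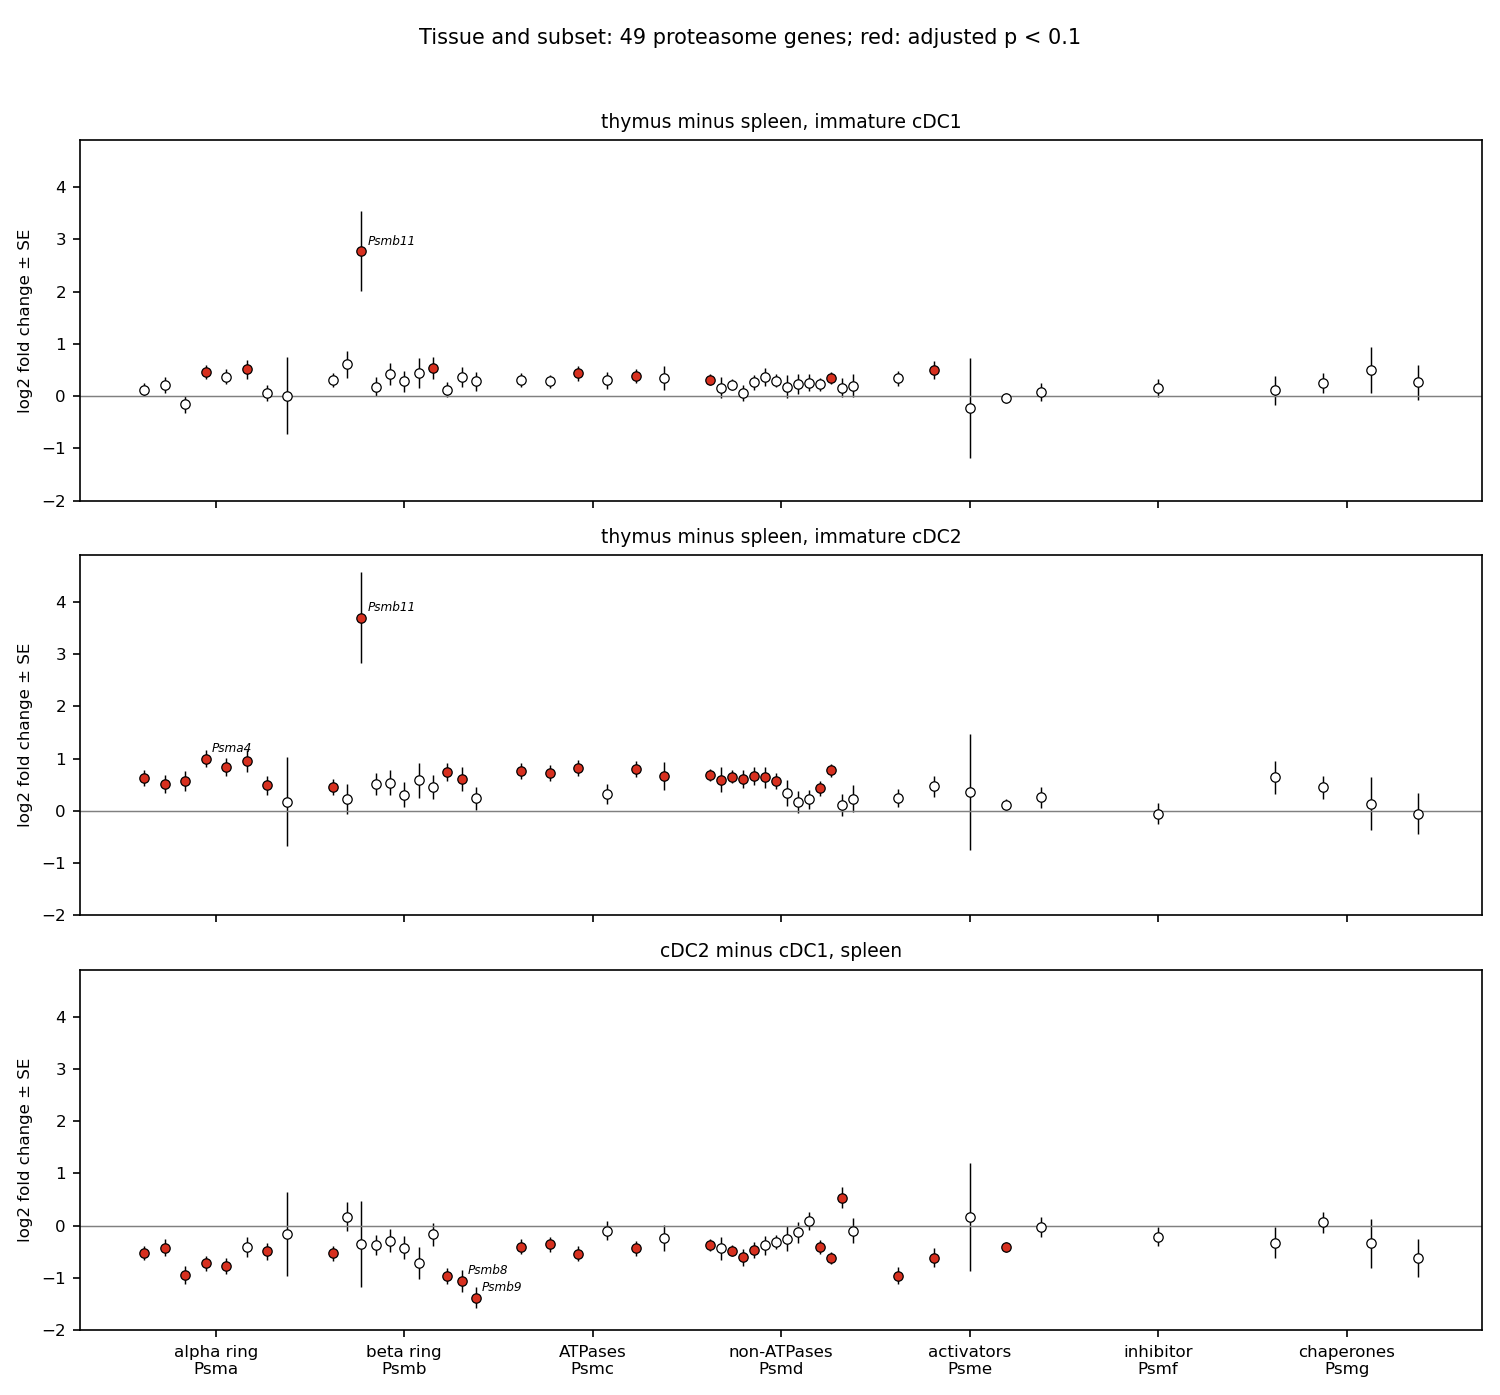
Log2 fold change ± SE for the 49 genes by subcomplex, of thymic over splenic immature cDC1 (top), of thymic over splenic immature cDC2 (middle) and of splenic cDC2 over splenic cDC1 (bottom), with genes at an adjusted p below 0.1 in red. Of the 49 values, 46 in the top and 47 in the middle panel are above zero and 44 in the bottom panel are below it.

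Most immune genes were lower in immature cDC2 than in immature cDC1. In the spleen 4 of 5 were lower in cDC2, and in the immature thymus the same number, against 13.4% and 10.5% of all genes. Psmb9 measured 5933, 5409, 8332 and 6592 in splenic cDC1 and 3141, 1843 and 2661 in splenic cDC2, with no overlap (-1.38 ± 0.21, adjusted p = 2.81e-05), and the immature thymic difference was -1.42 ± 0.21, adjusted p = 2.12e-05. Psmb8 measured 7568, 7027, 11496 and 8599.9 in splenic cDC1 and 5399, 2778 and 4579 in splenic cDC2 (-1.06 ± 0.21, adjusted p = 0.000812), and its thymic difference was -0.80 ± 0.21, adjusted p = 0.00876. Psme1 measured 11855, 12621, 12907 and 13746 in splenic cDC1 and 7345, 6143 and 6264 in splenic cDC2 (-0.96 ± 0.16, adjusted p = 9.8e-05), with -1.04 ± 0.16, adjusted p = 3.93e-05 in the thymus.

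Psmb10 was the exception among the immune genes. It measured 1099, 1119, 2298 and 1432 in splenic cDC1 and 2037, 1032 and 1939 in splenic cDC2, which overlapped (0.17 ± 0.28, adjusted p = 0.752). In mature cells Psme1 was the immune gene called of the 5 (-0.61 ± 0.17, adjusted p = 0.0132), while Psmb9 was at -0.33 ± 0.22, adjusted p = 0.302 and Psmb8 at -0.11 ± 0.23, adjusted p = 0.788. Between the mature groups, 9.27% of all genes were lower and 21% higher in cDC2. Of the 17 genes of the 19S particle, 15 were lower in mature cDC2 and none was higher. The count of higher 19S genes was 0 also at an unadjusted p below 0.05, with edgeR and with DESeq2. Psmd7 had the largest difference of the 15 lower genes, at -1.09 ± 0.13, adjusted p = 3.23e-06.

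Genes that serve or regulate the proteasome were read from lists set out by function, and pairs of values are log2 fold changes with maturation in cDC1 and then in cDC2. Of 16 partner genes, 5 were higher and 2 lower in mature cDC1, and 5 were higher and 5 lower in mature cDC2. Over all genes 30.4% were higher and 33.7% lower in cDC1 and 27.7% and 25.5% in cDC2, so that apart from the few lower genes in cDC1 these shares were near the background. Pomp, the chaperone that completes the core, did not pass in either (-0.12, adjusted p = 0.616, and -0.27, adjusted p = 0.298). Vcp, the ATPase that extracts ubiquitin-tagged proteins, rose at 1.14 (adjusted p = 1.79e-06) and 0.66 (adjusted p = 0.0021), and Uchl5, a deubiquitinase of the 19S particle, fell at -1.15 (adjusted p = 0.000132) and -1.07 (adjusted p = 0.000793). AI314180 (Ecpas), a proteasome adaptor, rose at 1.237 (adjusted p = 9.48e-07) and 0.83 (adjusted p = 0.000343), and Ubqln2, a shuttle for tagged proteins, at 1.00 (adjusted p = 3.47e-06) and 0.61 (adjusted p = 0.00217). The mean of Ubqln1 went the other way, from 3590 in TH1Minus to 2586 in TH1Plus and from 3598 in TH2Minus to 2265 in TH2Plus. The Ubqln genes thus did not share a direction. Ubb, which encodes ubiquitin itself, rose at 1.11 (adjusted p = 7.28e-05) and 0.74 (adjusted p = 0.00725).

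Of 8 regulators known for immunoproteasome genes, 6 were higher and 1 lower in mature cDC1, and 5 were higher and 1 lower in mature cDC2, against the same background of 30.4% higher and 33.7% lower genes in cDC1 and 27.7% and 25.5% in cDC2. Irf1, the transcription factor known to act on Psmb8 to Psmb10, measured 1164 to 1578 in immature and 40435 to 52848 in mature cDC1 (5.04 ± 0.17, adjusted p = 2.33e-15), and 2047 to 2488 in immature and 17309 to 18896 in mature cDC2 (3.00 ± 0.18, adjusted p = 4.88e-11). Nlrc5, the class I transactivator, rose at 2.50 (adjusted p = 2.1e-11) and 2.45 (adjusted p = 2.4e-10), and the kinase Jak2 at 1.58 (adjusted p = 5.02e-07) and 0.95 (adjusted p = 0.000646). The interferon-gamma receptor gene Ifngr1 was the gene that fell, ranging over 4770.2 to 6615 in immature and 596 to 889 in mature cDC1 (-3.05 ± 0.17, adjusted p = 5.66e-12) and at -2.40 (adjusted p = 1.42e-09) in cDC2. Of 4 regulators known for the constitutive genes, Nfe2l1 rose at 2.39 (adjusted p = 2.08e-11) and 2.21 (adjusted p = 5.1e-10), whereas Nfe2l2 did not pass in cDC1 (-0.39, adjusted p = 0.132) and fell in cDC2 (-1.69, adjusted p = 5.39e-06). The mean of Ddi2 was 2454 in TH1Minus, 1786 in TH1Plus, 2737 in TH2Minus and 2118 in TH2Plus, with overlapping samples in each subset. That of Ngly1 was 1356, 1497, 1236 and 1339 in the same order. The 4 genes thus did not share a direction.

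The last list held the genes that carry and load the peptides. Of its 11 genes, 8 were higher and 3 lower in mature cDC1, and 7 were higher and 3 lower in mature cDC2. Read against 30.4% and 33.7% of all genes in cDC1 and 27.7% and 25.5% in cDC2, the share of lower genes was near the background and that of higher genes above it. The transporter Tap1 rose at 0.76 (adjusted p = 0.00284) and 1.08 (adjusted p = 0.000329), and Tap2 at 0.73 (adjusted p = 0.0225) and 1.36 (adjusted p = 0.000458). The loading factors Tapbp and Tapbpl rose at 1.86 and 2.50 in cDC1 and 1.48 and 3.01 in cDC2, and B2m, the light chain of class I, at 1.85 and 1.48. The 3 that fell in both subsets were the general chaperones of the endoplasmic reticulum Calr (-1.19 and -0.98), Canx (-0.56 and -0.78) and Pdia3 (-1.27 and -1.71).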

How the data were processed

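RNA-seq libraries (TruSeq Stranded mRNA) of sorted splenic and thymic dendritic cells had been aligned with STAR 2.6 to mm10 per the labels. The deposited values are a signal per gene, that is reads divided by 1 DESeq2 1.24.0 size factor per library, computed by the authors; in each of the 21 libraries 100% of values were whole multiples of 1 read (within 0.01). Reads summed to 14266867 to 40119669. The values were compared with limma 3.58.1 (trend) on log2(value + 1), since they are not raw counts, with 1 mean per group over all 20 samples, for 14970 genes with at least 10 in at least 3 samples, with Benjamini-Hochberg adjustment over all of them; calls were made at an adjusted p below 0.1 and counted again above 2-fold. The 7 comparisons of groups and 2 interactions were tested. edgeR 4.0.16 and DESeq2 1.42.0 on the recovered reads, other filters, pseudocounts and left-out libraries were tried as alternatives, and the fit was tested on simulated data. Sequences came from RefSeq, gene positions from GENCODE M21, and per-kilobase levels use the union of exons. Members and lists were chosen with earlier results of these data known. Named with values were the immune, constitutive and special subunits, genes called above 2-fold or in an interaction, and the largest rise and fall per subcomplex. Libraries sharing a pool name deviated together in some pairs and not in others (correlations from -0.150 to 0.461). Pools were not treated as pairs in the main fit, and pool blocks were run as alternatives.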

Additional observations from a re-analysis of the deposited data

Results flagged for a closer look

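In the groups of 4 samples, a sample that stood far from the other 3 (Dixon's test) was found for 4 of 49 genes in each group, where chance gives about 1 in 20. In SP1Minus it was replicate 3 each time. Psmd3 measured 3145 there against 1826 to 1907, Psmb6 2541 against 1794 to 1901, Psmf1 976.2 against 645 to 688.3, and Psmc6 was low at 1347 against 2667 to 3006. In TH1Minus it was replicate 3 for Psmd13 (2631 against 1946 to 2037), Psmb7 (4524 against 2935 to 3144) and Psmb9 (10770 against 6884 to 7293). Psmd14 was low in TH1Minus replicate 1, at 2997 against 3614 to 3744.

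The change with maturation differed between cDC2 and cDC1 by the interaction test of limma for 10 genes. The difference on the log2 scale was -0.90 for Psmd7 (adjusted p = 0.00163), -0.78 for Psmd11 (adjusted p = 0.00366), -0.62 for Psmd1 (adjusted p = 0.0165) and -0.79 for Psmc1 (adjusted p = 0.0176). It was -0.72 for Psmc2 (adjusted p = 0.026), -0.74 for Psmc4 (adjusted p = 0.0724) and -0.58 for Psmc5 (adjusted p = 0.0735). It was above zero for Psmb9 at 1.09 (adjusted p = 0.02), Psmb11 at 4.24 (adjusted p = 0.023) and Psme3 at 0.38 (adjusted p = 0.0953).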

How the results depend on the processing

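Both maturation counts (27 and 23 genes) stayed within 1.5 times under every alternative run. Of 3254 alternative values for the named genes, 3028 kept their direction and their side of the threshold, 188 fell below it, 33 passed it and 5 changed sign, none of them called: Psmb10 thymic against splenic cDC2 without SP2Minus replicate 2 (-0.090, and 0.400 at most with 1 library left out), Psmb6 maturation in cDC1 without TH1Minus replicate 3 (0.044) or TH1Plus replicate 1 (0.003; -0.248 to 0.044 with 1 library left out), and Psmb7 thymic against splenic cDC1 without TH1Minus replicate 3 (-0.022; up to 0.186 with 1 library left out) or without TH1Minus replicates 3 and 4 (-0.052), the last chosen after seeing the data. The causes were not tested. Depth limited Psmb11 and Psme2b, and lane 5 held no mature library.

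The count of 9 for thymic against splenic cDC1 became 4 at an adjusted p below 0.05, 2 in lane 8 alone, 5 with those groups alone and 2 without TH1Minus replicates 3 and 4, and 2 to 13 with 1 library left out. The 24 genes of splenic cDC2 against cDC1 became 11 in lane 8 alone. The 8 of immature thymic cDC2 against cDC1 became 5 without a filter, 4 at an adjusted p below 0.05, 4 in lane 8 alone, 5 without TH1Minus replicates 3 and 4, and 4 to 9 with 1 library left out. The maturation interaction (10) became 4 in lane 8 alone and 7 to 16 with 1 library left out. The tissue interaction (0) became 1 with DESeq2, 3 with 21 separate libraries, 3 without TH1Minus replicates 3 and 4, and 0 to 7 with 1 library left out. With the pool as a replicate block, the immature thymic subset count became 4 (fixed block, against 8 in the same libraries without it), the tissue interaction 3 (random block), and the block moved no other count by over 1.5 times. With 1 sample per pool number in SP1Minus and TH1Minus no count moved by over 1.5 times, but 5 named results crossed the threshold: calls were lost for Psmb6 (0.52, adjusted p = 0.168) and Psmc5 (0.37, adjusted p = 0.125) in thymic against splenic cDC1 and for Psme4 in cDC1 maturation (0.36, adjusted p = 0.118), and Psmb9 passed in cDC1 maturation (0.42, adjusted p = 0.0994) and Psme2 in thymic against splenic cDC2 (0.47, adjusted p = 0.06). Without Psme1 and Psme2 the gain of immune over constitutive subunits was 0.715 in cDC1 and 1.29 in cDC2, and with Psmb1 to Psmb7 as the constitutive set the tissue difference in cDC1 was 0.091. With the longest transcript as length, the median log2 ratio was 2.63 instead of 1.80 for Psmb8 over Psmb5 and 0.015 instead of 0.63 for Psmb9 over Psmb6.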
